A study of Mus musculus with 9 samples.

Results

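Palladin (Palld) and 6 other genes of the cytoskeleton, Pkp4, Ssh1, Mtss1, Cnn3, Dpysl2 and Crip1, were followed through the outgrowth of color-coded acute myeloid leukemia (AML) clones in mice. The 7 genes were picked by name out of the 55401 annotated genes, and 42643 genes were detected with at least 1 read. They were chosen because they differed in these comparisons, so their levels and fold changes are given as a description and carry no p-value.

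RNA-Seq was available for 9 libraries of splenocytes sorted as CD45.1+ EGFRt-bright cKit+ CD11b-dim or negative, with 3 libraries per group. All clones descend from lineage-negative bone marrow cells of C57BL/6-Ly5.1 mice that carry a gammaretroviral vector with Meis1, Hoxa9 and puromycin resistance (H9M cells). Cells of every group carried a lentiviral color code vector. The cells were transplanted with helper bone marrow into lethally irradiated C57Bl6/J mice, and the labels give no age. Mouse #15, sacrificed before the leukemic endpoint, gave all 3 pre-malignant libraries, 1 from clone 33BC-D, 1 from clone 43BC-D and 1 from clone 38BC-D. De novo expanded libraries hold clone 38BC-D from mouse #13, clone 43BC-D from mouse #14 and clone 33BC-D from mouse #17, each at the endpoint. Stably expanded libraries came from clone 34BC-D in mice #13, #14 and #17 at the endpoint, so this group is 1 clone. Differences from the pre-malignant group and differences from mouse #15 cannot be told apart, and neither can traits of the stably expanded group and of clone 34BC-D. The labels tie each library to its group and not to a clone or mouse, so the libraries were numbered 1 to 3 within a group.

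Cells keep their shape with actin filaments and microtubules, and actin filaments are bundled, branched, capped and severed by dedicated proteins. Palladin is an actin-bundling scaffold that recruits alpha-actinin, VASP, profilin and ezrin, slingshot phosphatases activate the severing protein cofilin, and calponins bind along actin filaments. In myeloid cells the same machinery serves migration, adhesion to the niche and phagocytosis.

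Reads on genes ranged from 10379739 to 15551196 per library. The mean correlation of a library with the others of its group was 0.970 to 0.972 in the pre-malignant, 0.964 to 0.969 in the stably expanded and 0.924 to 0.949 in the de novo expanded group. De novo expanded library 3 stood apart with the lowest value, and the normalized count of Mpo, which encodes myeloperoxidase, was 218137 there against 22355 and 36037 in de novo expanded libraries 1 and 2. Hoxa9, Meis1, Kit and Ptprc, the gene of CD45, had at least 1700 reads in each library. Fold changes of the 7 genes that hold library 3, and correlations among them, are therefore given with and without it. In bulk RNA, fewer cells that express a gene and less RNA per cell cannot be told apart.

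The levels below are normalized counts, that is reads divided by a size factor over the 9 libraries. Per kilobase of exon, the mean over the 9 libraries was highest for Cnn3 with 225 normalized counts per kb, followed by Crip1 with 118, Dpysl2 with 95.6, Ssh1 with 50.9, Pkp4 with 31.4, Mtss1 with 14.3 and Palld with 8.68. In this order the ranges of neighbouring genes over the 9 libraries overlapped in each case. The place of Palld at the end rested on the stably expanded group, with 0.688 normalized counts per kb there, since in the pre-malignant group it had 11.4 against 7.64 for Mtss1. Its mean normalized count lay at the 33.1th percentile of genes with a mean of at least 10.

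Palld spans 391 kb of the minus strand of chromosome 8 (GRCm38.p6, chr8:61511433-61902690). Its normalized counts were 97.7, 200.0 and 54.5 in the pre-malignant libraries 1 to 3, 71.8, 64.5 and 294 in the de novo expanded group, and 2.71, 6.43 and 12.1 in the stably expanded clone. All 3 stably expanded libraries lay below all 6 others, while the pre-malignant and de novo expanded ranges overlapped. The stably expanded libraries held 3, 7 and 9 reads of Palld, against 59 to 215 in the pre-malignant and 63 to 326 in the de novo expanded libraries. The group means were 117 ± 74.8, 143 ± 130.5 and 7.08 ± 4.72 normalized counts (SD, n = 3 each). The spread within the first 2 groups was wide, with a 3.67-fold range in the pre-malignant and a 4.56-fold range in the de novo expanded group.

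On the log2(normalized count + 1) scale the stably expanded minus pre-malignant difference of Palld was -3.85 (SE 0.59), and the stably minus de novo expanded difference was -3.97 (SE 0.71). The second was -3.27 (SE 0.62) without de novo expanded library 3. The pooled reads, 19 in the stably expanded against 367 in the pre-malignant group, gave an 18.3-fold lower level (95% exact interval 11.5 to 30.7). Against the 463 reads of the de novo expanded group the ratio was 22.9 (interval 14.5 to 38.3), but 326 of those reads were in library 3, and without it the 137 remaining reads gave 10.5 (interval 6.45 to 17.9). These intervals cover counting error only. Between de novo expanded and pre-malignant libraries the difference was 0.14 (SE 0.67), and it was -0.56 (SE 0.45) without library 3. Its sign therefore rested on that library, which held the highest Palld level of all 9.

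Palladin is also abundant in fibroblasts, smooth muscle and endothelium, so markers of these cells are set beside it, followed by those of B cells and myeloid progenitors, which differed between the same groups. The sum of 10 fibroblast and muscle markers was 19.2 to 25.6 counts scaled to equal depth (CPM) in the pre-malignant, 11.4 to 39.4 in the de novo expanded and 10.6 to 25.9 in the stably expanded libraries. Pdgfrb carried this sum, with 121 to 520 normalized counts across the libraries, against 28.4 or less for each other gene of the list. The overlap of the sums therefore says little of the other genes. Of these 10 genes, 6 had 3 reads or fewer in each stably expanded library, and 2 in each pre-malignant library. The sum of 7 endothelial markers was 233 to 251 CPM in the pre-malignant, 102 to 247 in the de novo expanded and 90.8 to 149 in the stably expanded libraries. This sum was carried by Pecam1, which leukocytes also express. Pecam1 stood at -1.01 on the log2 scale (limma adjusted p = 0.00557), stably expanded minus pre-malignant. Cdh5, which encodes VE-cadherin, had 6 reads or fewer in each library. The endothelial sum did not overlap between stably expanded and pre-malignant libraries.

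Of 7 B cell markers 4 fell between pre-malignant and stably expanded libraries, with log2 differences of -3.04 for Pax5 (limma adjusted p = 0.0141), -2.89 for Ebf1 (limma adjusted p = 0.0206), -2.29 for Ms4a1 (limma adjusted p = 0.0284) and -1.68 for Ighd (limma adjusted p = 0.0321). All were low, with Pax5 at 24.0 to 65.1 normalized counts in the pre-malignant and 2.69 to 8.26 in the stably expanded libraries. The sum of the 7 was 19.2 to 28.2 CPM in the pre-malignant, 9.65 to 15.6 in the de novo expanded and 13.0 to 20.5 in the stably expanded libraries. Of 11 genes of the leukemic cells, Elane rose by 0.78 (limma adjusted p = 0.00783) and Itgam by 0.61 (limma adjusted p = 0.0485), and Cd34 fell by 0.76 (limma adjusted p = 0.0261). The sum of these 11 was 9600 to 9968 CPM in the pre-malignant, 3810 to 20817 in the de novo expanded and 11358 to 13064 in the stably expanded libraries. The part of these marker differences in the results for Palld, the other 6 genes and the lists below was not tested.

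The promoter windows of Palld and Pkp4 are shown because both genes were lower in the stably expanded clone. RefSeq (GRCm38.p6) gives Palld 3 transcription starts and Pkp4 2, and each window runs from 250 bases before to 50 bases after a start, 5′ to 3′ on the strand of the gene. The Palld windows lie at chr8:61902658-61902957, chr8:61760040-61760339 and chr8:61591090-61591389, on the minus strand. Those of Pkp4 lie at chr2:59160600-59160899 and chr2:59161619-59161918, on the plus strand. Capitals mark matches to the motifs named below.
Palld start 1: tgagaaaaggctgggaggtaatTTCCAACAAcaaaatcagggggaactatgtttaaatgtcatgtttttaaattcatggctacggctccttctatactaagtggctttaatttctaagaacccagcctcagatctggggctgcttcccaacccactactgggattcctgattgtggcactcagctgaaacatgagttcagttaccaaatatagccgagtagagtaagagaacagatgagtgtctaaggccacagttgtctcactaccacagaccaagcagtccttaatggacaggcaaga
Palld start 2: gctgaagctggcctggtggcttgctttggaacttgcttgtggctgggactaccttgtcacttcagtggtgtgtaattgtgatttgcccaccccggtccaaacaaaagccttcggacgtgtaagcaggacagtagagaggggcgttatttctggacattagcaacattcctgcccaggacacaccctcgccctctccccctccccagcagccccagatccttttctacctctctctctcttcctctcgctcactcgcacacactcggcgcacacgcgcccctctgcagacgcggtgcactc
Palld start 3: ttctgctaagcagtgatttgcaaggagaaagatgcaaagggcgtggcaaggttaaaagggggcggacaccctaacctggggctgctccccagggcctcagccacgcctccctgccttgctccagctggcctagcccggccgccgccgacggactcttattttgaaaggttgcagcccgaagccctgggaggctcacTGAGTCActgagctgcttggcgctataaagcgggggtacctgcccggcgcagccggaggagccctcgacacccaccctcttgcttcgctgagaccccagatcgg
Pkp4 start 1: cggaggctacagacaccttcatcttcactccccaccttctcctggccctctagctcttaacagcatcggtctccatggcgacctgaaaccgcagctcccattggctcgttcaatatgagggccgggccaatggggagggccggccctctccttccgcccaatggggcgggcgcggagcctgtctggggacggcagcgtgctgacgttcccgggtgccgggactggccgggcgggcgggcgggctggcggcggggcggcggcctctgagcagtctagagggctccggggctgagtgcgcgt
Pkp4 start 2: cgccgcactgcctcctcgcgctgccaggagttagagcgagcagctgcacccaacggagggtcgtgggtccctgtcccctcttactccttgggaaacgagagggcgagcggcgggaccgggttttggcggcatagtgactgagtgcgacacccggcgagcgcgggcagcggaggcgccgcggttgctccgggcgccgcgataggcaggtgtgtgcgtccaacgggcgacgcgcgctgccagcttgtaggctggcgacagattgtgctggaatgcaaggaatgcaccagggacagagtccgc
The first Palld window, at the 5′ end of the gene, held 44% G and C and 2 CpG dinucleotides, the second 57.7% and 13, and the third 63% and 17. Both Pkp4 windows were richer, with 69.3% and 27 CpG and with 68% and 34 CpG. The median of all 32851 windows was 52.7% G and C with 7 CpG. The normalized counts are summed over a gene and do not tell from which start its reads came.

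On both strands of these windows 6 motifs were searched: AP-1 (TGANTCA), MEIS (TGACAG), PBX-HOX (TGATTNAT), C/EBP (TTNCNNCAA), the E-box (CACGTG) and the CArG box of SRF. The first Palld window held a C/EBP match 228 to 220 bases before the start, and the third an AP-1 match 54 to 48 bases before it. C/EBP letters stood in 12.3% of all windows and AP-1 letters in 7.81%. The E-box stood in 7.15%, MEIS in 19.2%, PBX-HOX in 3.22% and the CArG box in 1.63% of all windows, and in none of those of the members. RefSeq windows were at hand for 5 of the 7 genes, 8 windows in all, and 2 of them held a match, both of Palld. Those of Ssh1 with 80% G and C, Cnn3 with 78.3% and Crip1 with 68.3% held none. Windows for Mtss1 and Dpysl2 were not used here. A match describes letters and does not show that a factor binds.

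Pkp4 encodes plakophilin 4 (p0071), an armadillo protein of the p120 catenin family at cell junctions, and lies on the plus strand of chromosome 2 (chr2:59160850-59355208). Its normalized counts were 255, 177 and 258 in the pre-malignant, 136, 259 and 363 in the de novo expanded, and 50.7, 90.9 and 24.2 in the stably expanded libraries. As for Palld, the stably expanded libraries lay below all others, and the other groups overlapped. Group means were 229.9 ± 46.0, 252 ± 114 and 55.2 ± 33.6 (SD, n = 3 each). On the log2 scale the stably expanded libraries differed by -2.21 (SE 0.41) from the pre-malignant and by -2.25 (SE 0.54) from the de novo expanded libraries, the latter by -1.93 (SE 0.52) without library 3. De novo expanded and pre-malignant libraries differed by 0.06 (SE 0.36), or by -0.26 (SE 0.28) without library 3.

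Ssh1 encodes slingshot 1, the phosphatase that removes the inhibitory phosphate from cofilin, and lies on the minus strand of chromosome 5 (chr5:113937094-113993894). Its normalized counts were 308, 445 and 425 in the pre-malignant, 366, 384 and 378 in the de novo expanded, and 596, 558 and 609.7 in the stably expanded libraries. Each of these last 3 was higher than the other 6 libraries, and the shift was smaller than those of Palld and Pkp4. Their mean was 588 ± 26.7 against 392 ± 74.0 in the pre-malignant and 376 ± 9.44 in the de novo expanded group (SD, n = 3 each). De novo expanded minus pre-malignant was -0.02 (SE 0.17), and -0.03 (SE 0.18) without library 3. The stably expanded libraries stood at a log2 difference of 0.60 (SE 0.15) from the pre-malignant and 0.64 (SE 0.12) from the de novo expanded libraries. The latter was 0.65 (SE 0.14) without library 3, whose Ssh1 level lay between those of de novo expanded libraries 1 and 2.

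Mtss1 encodes a membrane-bending I-BAR protein (metastasis suppressor 1) that links actin to the plasma membrane, and lies on the minus strand of chromosome 15 (chr15:58941234-59082005). Normalized counts were 56.7, 127 and 76.6 in the pre-malignant, 259.8, 368 and 275 in the de novo expanded, and 58.8, 165 and 73.9 in the stably expanded libraries. Here the de novo expanded group stood alone, with all 3 libraries above the other 6, library 3 included. Group means were 86.6 ± 36.0, 301 ± 58.5 and 99.3 ± 57.6 (SD, n = 3 each). De novo expanded libraries differed by 1.87 (SE 0.31) from the pre-malignant, a 3.64-fold higher level, and by 1.92 (SE 0.33) without library 3. Stably minus de novo expanded was -1.72 (SE 0.39), and -1.77 (SE 0.41) without library 3, and stably expanded minus pre-malignant was 0.13 (SE 0.41).

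Cnn3 encodes calponin 3, the actin-binding calponin of non-muscle cells, and lies on the plus strand of chromosome 3 (chr3:121426497-121458207). In the pre-malignant libraries its normalized counts were 344, 524 and 382, in the de novo expanded 779.5, 817 and 1324, and in the stably expanded 429.8, 539.9 and 1015. De novo expanded libraries lay above all pre-malignant ones, while stably expanded libraries overlapped with both groups. Group means were 417 ± 94.9, 973 ± 304 and 662 ± 311 (SD, n = 3 each). The de novo expanded minus pre-malignant difference was 1.22 (SE 0.25) and 0.98 (SE 0.18) without library 3, which held the highest Cnn3 level. The stably expanded group differed by 0.59 (SE 0.28) from the pre-malignant and by -0.61 (SE 0.34) from the de novo expanded group, the latter by -0.37 (SE 0.30) without library 3.

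Dpysl2 encodes CRMP2, which binds tubulin dimers and promotes microtubule growth, and lies on the minus strand of chromosome 14 (chr14:66802864-66868688). Its normalized counts were 159.7, 228 and 188 in the pre-malignant, 961, 1002 and 259.8 in the de novo expanded, and 225, 521 and 344 in the stably expanded libraries. De novo expanded libraries 1 and 2 were the highest of all 9, whereas library 3 lay just above the highest pre-malignant library. Group means were 192 ± 34.3, 741 ± 417 and 363 ± 149 (SD, n = 3 each). The de novo expanded minus pre-malignant difference was 1.74 (SE 0.49), and 2.38 (SE 0.18) without library 3. Stably minus de novo expanded was -0.88 (SE 0.55) with library 3, where the groups overlapped, and -1.51 (SE 0.29) without it. Stably expanded and pre-malignant libraries differed by 0.85 (SE 0.27) and overlapped.

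Crip1 encodes a small cysteine-rich LIM-domain protein, and lies on the plus strand of chromosome 12 (chr12:113146316-113153879). Its normalized counts were 86.2, 99.6 and 176 in the pre-malignant, 463, 487 and 185 in the de novo expanded, and 354, 323 and 252 in the stably expanded libraries. All 6 endpoint libraries lay above the 3 pre-malignant ones, de novo expanded library 3 only narrowly. Group means were 121 ± 48.7, 378 ± 168 and 309.8 ± 52.0 (SD, n = 3 each). Log2 differences from the pre-malignant group were 1.61 (SE 0.43) in de novo expanded libraries, 2.05 (SE 0.28) without library 3, and 1.41 (SE 0.27) in stably expanded libraries. Both comparisons share the pre-malignant libraries. Between the endpoint groups the difference was -0.18 (SE 0.37), and -0.63 (SE 0.18) without library 3.

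**Figure D1:**
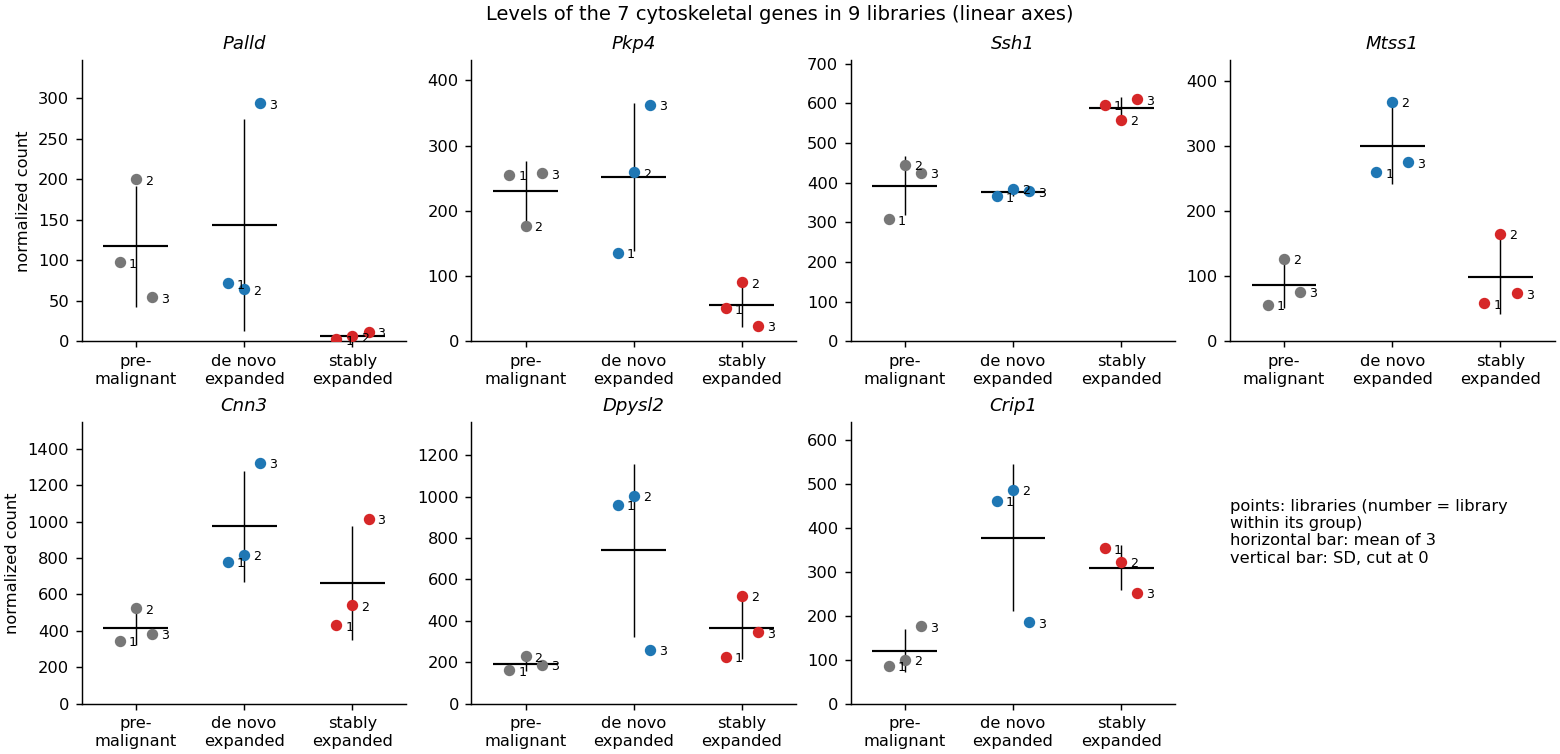
Normalized counts (y axis, linear, from 0) of the 7 genes in the pre-malignant, de novo expanded and stably expanded libraries; points are single libraries numbered within their group, horizontal bars the mean of 3 and vertical bars the SD. Palld and Pkp4 are lowest in the stably expanded group, Ssh1 highest there, and Mtss1 highest in the de novo expanded group.

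By overlap between groups, the 7 genes took 3 shapes. Palld, Pkp4 and Ssh1 set the stably expanded libraries apart from both other groups. Mtss1, Cnn3 and Dpysl2 were higher in all de novo expanded than in all pre-malignant libraries, while stably expanded and pre-malignant libraries overlapped. Crip1 was higher in both endpoint groups than in any pre-malignant library. Group means did not separate these sets, since each gene but Ssh1 had its highest mean in the de novo expanded group. Cnn3 and Dpysl2 were also higher on average in the stably expanded than in the pre-malignant group. Across the 9 libraries Palld and Pkp4 correlated with r = 0.79, Palld and Ssh1 with r = -0.80 and Pkp4 and Ssh1 with r = -0.84. Within the second set Mtss1 and Dpysl2 reached r = 0.77 and Mtss1 and Cnn3 r = 0.66, while Dpysl2 and Crip1 reached r = 0.82. Without de novo expanded library 3, the first 3 were 0.74, -0.80 and -0.84, and the last 3 were 0.91, 0.57 and 0.81. For Cnn3 and Dpysl2, r was 0.48 with that library and 0.74 without it. These r values share the group means and the libraries, and are a description over 9 points.

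Calls required at least 2-fold change and, in limma, an adjusted p under 0.05 (Benjamini-Hochberg, over all genes tested). Between stably expanded and pre-malignant libraries 3 of the 7 were called, where 2.75% of 13968 genes were called. Palld and Pkp4 were lower, like 1.55% of genes, and Crip1 was higher, like 1.2%. All 3 were also called by edgeR among 2.7% of genes and by DESeq2 among 0.966%, both run on recovered reads. In 1 limma fit of all 9 libraries none of the 7 was called or passed, with 0.043% of genes called and 0.0573% passed at any fold. Crip1 was not called without pre-malignant library 2, leaving 2 of 7 beside 1.49% of genes, and Dpysl2 joined without stably expanded library 1, which made 4 beside 1.48%. Ssh1 passed the adjusted p without reaching 2-fold, which made 4 of 7 beside 7.95% of genes. No overlap between these groups was seen for 4 of the 7, against 30.7% of all genes tested. Of these 4, Ssh1 and Crip1 were higher, like 16.1% of genes, and Palld and Pkp4 lower, like 14.6%. Since the genes were chosen from such comparisons, nothing follows from these counts.

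Between de novo expanded and pre-malignant libraries none of the 7 was called by limma, where 0% of 14195 genes were called, and 11.3% had an unadjusted p under 0.05. Mtss1, Cnn3, Dpysl2 and Crip1 did not overlap between these groups, as did 19.1% of all genes, and all 4 were higher, like 10.6%. Without library 3 the same 4 did not overlap, beside 40.5% of genes. Without library 3, Mtss1, Dpysl2 and Crip1 were called, where 1.5% of genes were called, and with any fold 4 of the 7 passed, beside 4.35%. DESeq2 on all 6 libraries called the same 3 and Cnn3, and called 0.102% of its 41164 genes (0.119% with any fold), whereas edgeR called 0 of all genes.

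Between the endpoint groups limma called none of the 7 and 0.00727% of 13758 genes, which was 1 gene, and 4.83% had an unadjusted p under 0.05. Palld, Pkp4, Mtss1 and Ssh1 did not overlap between these groups, against 9.61% of all genes. Ssh1 was the higher one, like 4.66% of genes, and the others were lower, like 4.95%. Without library 3 the 6 genes other than Cnn3 did not overlap, beside 38.4% of genes. DESeq2 called Palld, Pkp4 and Mtss1 among 0.0774% of its genes, and edgeR none of the 7. Without library 3 limma called Palld, Mtss1 and Dpysl2, where 3.69% of genes were called, and with any fold 4 of the 7 passed, beside 6.69%.

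**Figure D2:**
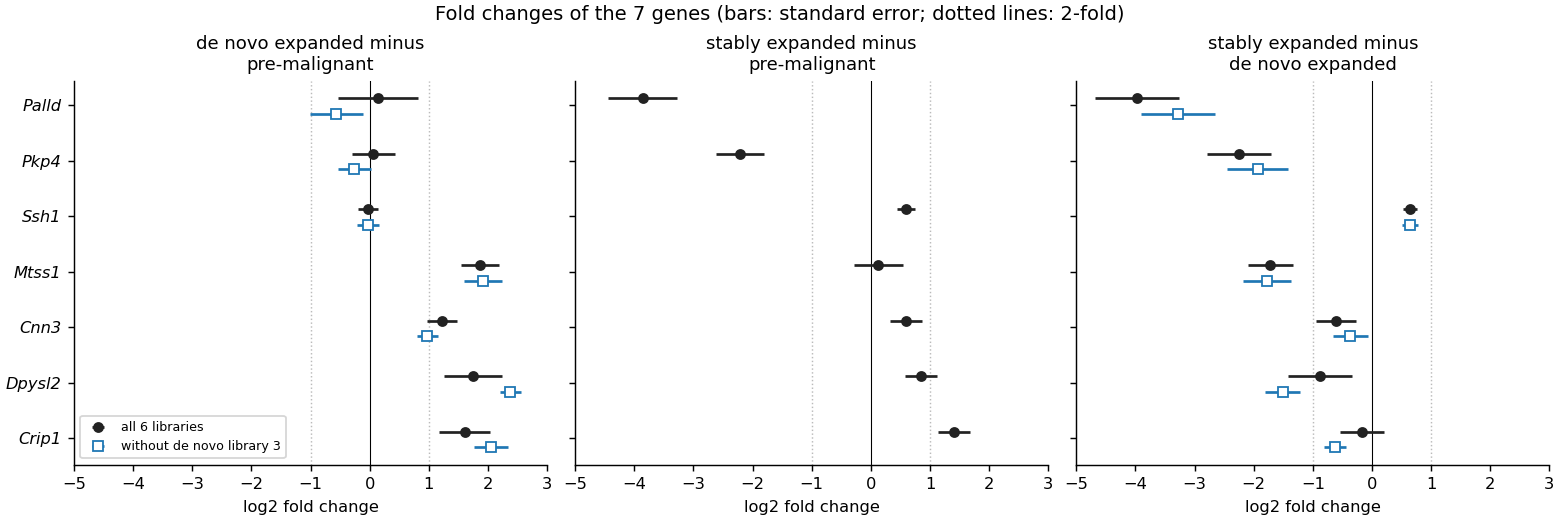
Log2 fold change (x axis, on log2(normalized count + 1)) of each of the 7 genes in the 3 comparisons, with bars for the standard error; filled circles use all 6 libraries and open squares leave out de novo expanded library 3. Palld lies near -3.85 and -3.97 in the comparisons of the stably expanded clone, and the largest shifts without library 3 are those of Palld, Dpysl2 and Crip1.

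Beyond the 7 genes, 8 lists with 115 further genes of the same machinery were examined, of which 83 were tested between stably expanded and pre-malignant libraries. Of these, 18 rose and 5 fell at an adjusted p under 0.05 in limma with any fold, 23 in all or 27.7%, against 7.95% of all genes, 4.34% rising and 3.61% falling. Their changes were small, with absolute log2 values of 0.33 to 2.52, and 1 reached 2-fold. The median change over the 83 genes was 0.17 on the log2 scale, against 0.00 over all genes tested. The lists were chosen with earlier results of these data known, and the genes set beside them were not matched for expression level. Nothing therefore follows from the difference in these shares. Of the 23 genes, 7 passed in each of the 6 fits that left out 1 library, namely Vasp, Pfn1, Ezr, Dstn, Cnn2, Csrp1 and Lmo4. The count of list genes that passed was 11 without pre-malignant library 1, 7 without library 2 and 12 without library 3. It was 9, 15 and 22 without stably expanded libraries 1, 2 and 3. When all 9 libraries were fitted together, none of the 23 passed in limma, with adjusted p from 0.0764 to 0.266. Genes named in the next paragraphs beyond those of the naming rule were chosen after their values were seen.

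Of palladin's partners 12 of 16 were tested, and 5 rose and 1 fell between pre-malignant and stably expanded libraries, with a list median of 0.19. Pfn1, profilin 1, which feeds actin monomers to growing filaments, rose by 0.61 (SE 0.10, limma adjusted p = 0.00877), from 4443 ± 353 to 6789 ± 758 normalized counts. Vasp, an actin polymerase that binds palladin, had 2021, 2352 and 2235 normalized counts in the pre-malignant and 4199, 3280 and 3135 in the stably expanded libraries, with no overlap. Its rise was 0.67 (SE 0.12, limma adjusted p = 0.0102). Actn4, an alpha-actinin, rose by 0.36 (SE 0.10, limma adjusted p = 0.0452), and Ezr and Vcl rose while Evl fell. Palladin's own relatives myotilin and myopalladin were hardly detected, with a mean of 1.32 normalized counts for Myot and 2.99 for Mypn over the 9 libraries.

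The cofilin list held 18 tested genes: cofilins, other actin turnover proteins, and kinases and phosphatases that control cofilin. Of these, 4 rose and 2 fell, with a median of 0.20. Those that rose were Dstn, Cap1, Wdr1 and Twf2, and no kinase or phosphatase was among them. The actin-severing cofilin relative Dstn rose by 0.91 (SE 0.14, limma adjusted p = 0.00583), and its partner Wdr1 by 0.45 (SE 0.09, limma adjusted p = 0.0171). Limk1 and Tesk1, kinases that oppose slingshot by phosphorylating cofilin, fell by 0.47 and 0.68 on the log2 scale. Their SE were 0.13 and 0.18, with limma adjusted p = 0.0467 and 0.0453, and each passed in 1 of 6 fits that left out a library. The cofilin kinases Limk2 and Tesk2 did not pass, with -0.13 (SE 0.15) and 0.46 (SE 0.24). Cfl1, the main cofilin, stood at 0.32 (SE 0.10, limma adjusted p = 0.0763). The slingshot relatives did not pass, with values of -0.19 (SE 0.09) for Ssh2 and -0.20 (SE 0.15) for Ssh3. Per kb, Ssh2 with 95.4 to 109 normalized counts exceeded Ssh1 in each group. Ssh3 exceeded it with 65.9 against 44.1 in the pre-malignant and 54.2 against 42.3 in the de novo expanded group, and lay below it with 57.0 against 66.1 in the stably expanded group.

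Of the calponin and tropomyosin list 2 of 8 tested genes rose and none fell, with a median of 0.20. Cnn2, the calponin with the highest level here, rose by 0.79 (SE 0.12, limma adjusted p = 0.00628), and Tagln2, a calponin-like protein, by 0.41 (SE 0.10, limma adjusted p = 0.0362). Cnn3 itself was higher on average in the de novo expanded group, where Cnn2 had 1817 and 1803 normalized counts in libraries 1 and 2, below all pre-malignant libraries (1998 to 2285), and 3487 in library 3. Cnn2 had 1121 normalized counts per kb on average, against 225 for Cnn3 and 0.224 for Cnn1, the smooth muscle calponin. Myh9, the heavy chain of non-muscle myosin, had the highest count of this list and stood at 0.34 (SE 0.09, limma adjusted p = 0.0548).

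LIM proteins related to Crip1 were tested for 12 of 19 genes, and 5 rose and 2 fell, with a median of 0.42. Csrp1, a cysteine-rich protein that binds alpha-actinin and zyxin, rose by 0.81 (SE 0.14, limma adjusted p = 0.00896). Lmo4 rose from 489 ± 10.4 to 974 ± 176 normalized counts, and Pxn, the focal adhesion protein paxillin, rose by 0.44 (SE 0.10, limma adjusted p = 0.0236). Lmo2, a LIM-only transcription cofactor of blood progenitors, fell by 0.33 (SE 0.08, limma adjusted p = 0.0348), and in none of the fits that left out 1 library did it pass. The closest Crip1 relatives were hardly detected, with means of 2.47 normalized counts for Crip2 and 0.611 for Crip3.

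In the junction list of Pkp4, Cdh1, which encodes E-cadherin, was the only one of 7 tested genes to rise and the 1 list gene past 2-fold, with 1.05, 2.79 and 7.39 normalized counts in the pre-malignant and 17.2, 16.5 and 37.6 in the stably expanded libraries. Its change of 2.52 (SE 0.68, limma adjusted p = 0.0480) rested on few reads and passed in 1 of 6 fits that left out a library. Ctnnb1 and Ctnna1, the catenins with the highest counts, stood at 0.08 (SE 0.10) and -0.25 (SE 0.21). Of Pkp4's relatives Ctnnd1 had a mean of 73.5 normalized counts, Pkp3 35.7 and Arvcf 8.13, and Pkp1, Pkp2 and Ctnnd2 had 3.20 or less.

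In the microtubule list of Dpysl2, 1 of 17 genes rose, Mapre1, which encodes the plus-end protein EB1, by 0.37 (SE 0.08, limma adjusted p = 0.0252). Tubb5 and Tubb4b, the tubulins with the highest counts, stood at 0.27 (SE 0.14) and 0.25 (SE 0.13). No other CRMP was expressed at a comparable level: Dpysl3 had a mean of 3.17 normalized counts, Dpysl5 1.76 and Crmp1 0.972, and Dpysl4 had no read. Baiap2, the only tested I-BAR relative of Mtss1, stood at 0.22 (SE 0.18), and Mtss1l had a mean of 7.30 normalized counts. Per kb, Baiap2 exceeded Mtss1 in each group, with 53.7, 62.5 and 63.3 normalized counts in the pre-malignant, de novo expanded and stably expanded groups against 7.64, 26.5 and 8.75. Among targets of the actin-sensing factor SRF and its cofactor MRTF, 3 of 15 rose, Vcl, Tagln2 and Cnn2, all of which stand in lists above. Actb, beta-actin, stood at 0.40 (SE 0.12, limma adjusted p = 0.0706).

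**Figure D3:**
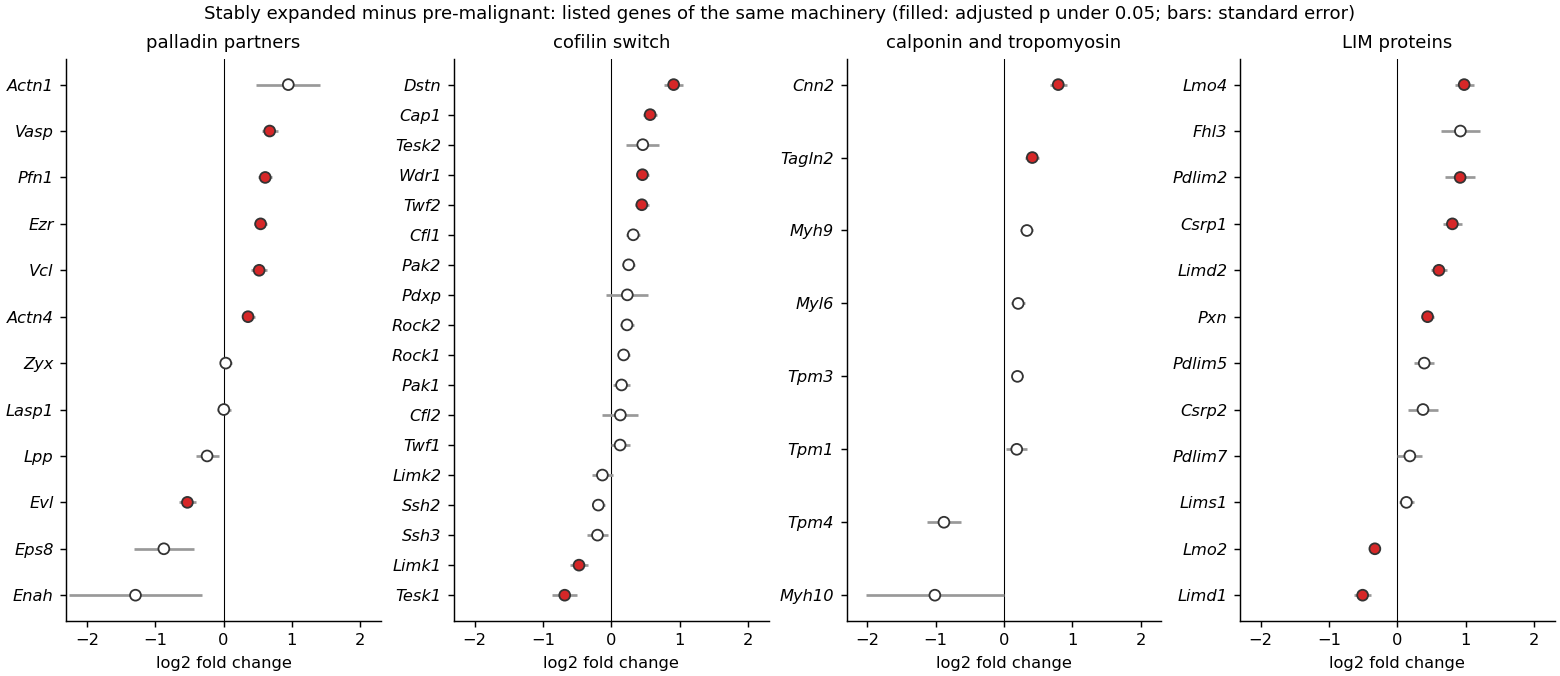
Log2 fold change (x axis) between stably expanded and pre-malignant libraries of the tested genes of 4 lists, with bars for the standard error; filled points passed an adjusted p under 0.05 in limma. Most filled points lie on the right, among them Dstn, Cnn2, Vasp and Lmo4, and those on the left are Evl, Limk1, Tesk1, Lmo2 and Limd1.

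In the other comparisons none of the list genes passed in limma, with 0 of 85 tested against pre-malignant libraries in the de novo expanded group and 0 of 82 across the endpoint groups. An unadjusted limma p under 0.05 was reached by 12 of 85 and 10 of 82, against 1597 of 14195 (11.3%) and 664 of 13758 (4.83%) of all genes. Since the lists were chosen with earlier results known and were not matched for expression level, nothing follows from these shares either. Without de novo expanded library 3, limma called 2 and 6 list genes in these comparisons, beside 1.5% and 3.69% of all genes. The 2 were Tubb6 with 1.10 (SE 0.19) and the cofilin kinase Tesk2 with -1.28 (SE 0.24), de novo expanded minus pre-malignant. Between the endpoint groups Dstn, Cnn2, Pak1, Actn1 and Tesk2 were then higher and Tpm4 lower in the stably expanded libraries. Dstn reached 1.36 (SE 0.18) and Cnn2 1.04 (SE 0.14) there, with de novo expanded library 3 holding 5989 and 3487 normalized counts, both within the range of the stably expanded libraries. For Palld the same library lay opposite, at 294 against 12.1 or less.

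**Figure D4:**
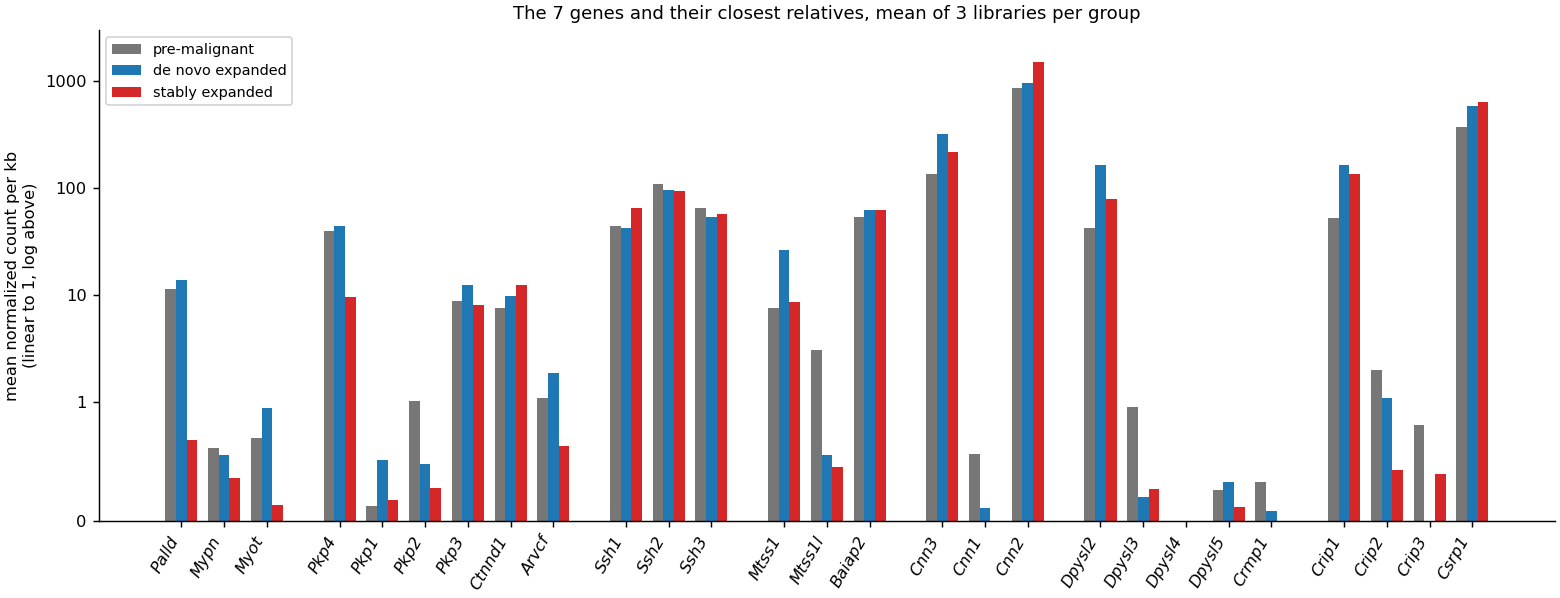
Mean normalized count per kb of exon (y axis, linear up to 1 and logarithmic above) of the 7 genes and their closest relatives in the 3 groups, each bar the mean of 3 libraries. Dpysl2 and Mtss1 exceed the relatives drawn beside them except Baiap2, which exceeds Mtss1 in every group, as Csrp1 does Crip1, Cnn2 does Cnn3 and Ssh2 does Ssh1; Ctnnd1 exceeds Pkp4 in the stably expanded group only.

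With no library left out, none of the tested genes beside the 7 on the chromosome was called. Within 250 kb of a member, 40, 37 and 41 genes were tested in the de novo against pre-malignant, stably against pre-malignant and endpoint comparisons. Of these, limma, edgeR and DESeq2 each called 0. Among all genes limma called 0%, 2.75% and 0.00727% in these comparisons, so nothing follows from counts of 0 among so few genes. An unadjusted limma p under 0.05 was reached by 4 of 40, 5 of 37 and 3 of 41 of these, beside 11.3%, 25.4% and 4.83% of all genes. Nearest to Palld, Cbr4 lay 4.74 kb away with 72.0 ± 11.0 normalized counts in pre-malignant and 88.7 ± 24.1 in stably expanded libraries, and Ddx60 25.4 kb away with 69.2 ± 29.2 and 44.1 ± 27.7. Beside Crip1, Tedc1 at 2.54 kb had 435 ± 47.6 and 409 ± 72.6, and Mta1 at 9.11 kb had 1407 ± 134 and 1338 ± 99.8. Ndufb9 lay 1.75 kb from Mtss1, on the opposite strand, and had 580.2 ± 34.3 in pre-malignant and 773 ± 100.4 in de novo expanded libraries. The other nearest tested genes that did not overlap a member were Gm5045 beside Mtss1, Coro1c and Usp30 beside Ssh1, Alg14 beside Cnn3 and Gm5464 beside Dpysl2. Pkp4 had none. Gm42929 overlapped Cnn3 on the same strand, had a mean of 10.7 normalized counts and was tested in 2 comparisons. Its part in the reads of Cnn3 was not tested. Without de novo expanded library 3, Sqle near Mtss1, Ddx60 near Palld and Ighg2b near Crip1 were called between de novo expanded and pre-malignant libraries. Ighg2b was then also called between the endpoint groups. Of all genes 1.5% and 3.69% were called in these 2 fits. Whether the authors' counting used strand is not stated, so reads of overlapping opposite genes could not be told apart.

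The genes whose levels over the 9 libraries were most like those of a member were sought among 13960 genes. For Palld they were Stard3 with r = 0.95, Insig1 with r = 0.95 and Gm30023 with r = 0.93, and r stayed between 0.91 and 0.99 when each library was left out in turn. Their changes were far smaller, with group means of 377, 379 and 321 normalized counts for Stard3. The closest to Pkp4 was Gbx2 with r = 0.97, at 18.6 normalized counts in the pre-malignant, 14.4 in the de novo expanded and 0.918 in the stably expanded group. For the others it was Homez beside Ssh1 with r = 0.97, Cerkl beside Mtss1 with r = 0.97, Golt1b beside Cnn3 with r = 0.93, Slc7a1 beside Dpysl2 with r = 0.98 and Cdca4 beside Crip1 with r = 0.98. With 9 points and 13960 genes searched, high values are reached readily, and they are given as a description.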

How the data were processed

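The authors processed reads with bcl2fastq, Trim Galore 0.6.4, STAR 2.6.1d and featureCounts 1.6.4 on GRCm38.p6, per the submitters' processing notes, from libraries of very low RNA input. They deposited 3 tables, 1 per pair of groups and 6 libraries each, of a signal: read counts divided by DESeq2 size factors. Gene lengths in the tables were deposited too. The columns with the authors' fold changes, standard errors, Wald statistics, p-values and base means were not used.

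Each library's values, divided by its smallest step, came out as whole reads (tolerance 0.05 reads) in 99.9954% or more of the nonzero entries. The 9 libraries were set on 1 scale with median-of-ratios size factors over 15834 genes. Tests used limma 3.58.1 (R 4.3.3) on log2(normalized count + 1), with an empirical Bayes trend, two-sided, per table, where the mean normalized count was 10 or more, with Benjamini-Hochberg adjustment. A call needed an adjusted p under 0.05 and at least 2-fold. Fold changes are differences on that scale and understate changes of low genes. On simulated data with 4-fold changes the test found 168 of 200 changed genes in the design of de novo expanded against pre-malignant libraries, 180 of 199 in that of stably expanded against pre-malignant libraries, and 167 of 199 in that of the endpoint groups, each with 12 false calls.

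Alternatives were pseudocounts of 0.1 and 5, no filter or a mean of at least 50, median centring, quantile normalization, edgeR 4.0.16 with TMM, DESeq2 1.42.0 without outlier steps, 1 fit of all 9 libraries, no fold limit, and leaving out each library. CPM were computed from recovered reads. The members and lists were chosen with earlier results of these data known. Named are the members, list genes called, the 2 tested genes of each list with the highest counts, relatives of members, nearest tested neighbours within 250 kb and called ones, and the genes most like a member. Libraries are separate sorted samples, and p-values measure the spread between these samples. Protein sequences were not used here. Figures were drawn with matplotlib 3.10.9. A further modification shared by all groups is not reported here.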

Additional observations from a re-analysis of the deposited data

How the results depend on the processing

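The fold changes of the 7 genes kept their direction, or moved by less than the spread between libraries, under all 315 combinations of gene, comparison and alternative. Counts of calls moved more. Between de novo expanded and pre-malignant libraries, members called went from 0 to 4 with DESeq2 (4 without a fold limit) and ranged from 0 to 3 when 1 library was left out (0 to 4 without a fold limit). List genes called ranged from 0 to 2 (0 to 8 without a fold limit) and neighbours called from 0 to 3 in the same fits, each highest without de novo expanded library 3. Between stably expanded and pre-malignant libraries, the fit of all 9 libraries called 0 of the 7 members, with or without a fold limit, against 3 and 4. Leaving out 1 library gave 2 to 4 members called and 2 to 4 passed. The list genes called were 1, and 0 with a pseudocount of 0.1, a mean of at least 50, DESeq2 or all 9 libraries in 1 fit, and 23 without a fold limit. They ranged from 0 to 2 when 1 library was left out, and those passed without a fold limit from 7 to 22, lowest without pre-malignant library 2, and 0 in the fit of all 9. Between the endpoint groups, members called went from 0 to 3 with DESeq2, with and without a fold limit, and ranged from 0 to 3 when 1 library was left out (0 to 4 without a fold limit). List genes called then ranged from 0 to 6 (0 to 13 without a fold limit) and neighbours from 0 to 1, each highest without de novo expanded library 3. The cause of these shifts was not tested. No paired analysis was possible because the columns carry no clone or mouse. Depth limits Palld most, since a stably expanded library held as few as 3 reads.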
